A study of Homo sapiens with 24 samples.

Results

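The messenger RNAs of very long proteins of the cytosol and the cytoskeleton were followed through pull-downs of 2 chaperone proteins. They are 30 of the 28307 genes of the count table, chosen by symbol for the length and location of their products. The choice uses no measured value, but it was made with earlier results of these data known. All 30 were matched by gene ID, all are protein coding, and all 30 passed the filter on low counts in every fit. By role they fall into 10 linkers of actin, microtubules and intermediate filaments (MACF1, DST, PLEC, UTRN, FLNA, SPTBN1, SPTAN1, IQGAP1, AHNAK and AHNAK2), 4 motor subunits (DYNC1H1, DYNC2H1, DNAH1 and MYH9), 7 ubiquitin ligases (HUWE1, UBR4, HERC1, HERC2, BIRC6, MYCBP2 and RNF213), 6 proteins of lipid transfer and membrane traffic (VPS13A, VPS13B, VPS13C, VPS13D, LRBA and CLTC) and 3 metabolic multi-enzymes (FASN, ACACA and CAD).

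RUVBL1 is an AAA+ ATPase that, with RUVBL2, RPAP3 and PIH1D1, forms the R2TP co-chaperone of HSP90, which helps to build large complexes such as RNA polymerases, snRNPs and kinases of the PIKK family. A chaperone that holds a nascent chain still attached to its ribosome brings the mRNA with it, and puromycin, which releases nascent chains from ribosomes, breaks that link. A long coding sequence keeps a nascent chain on the ribosome for longer and carries more ribosomes. None of the 30 proteins is a subunit of the complexes just named, but axonemal dyneins, to which DNAH1 belongs, are also assembled with the help of R2TP and related factors.

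RNA was sequenced after affinity purification from HCT116, an established line of human colorectal carcinoma cells in which GFP had been knocked in by CRISPR/Cas9 on RUVBL1 or on RPAP3. Every lysate, that of the controls included, therefore carried the GFP fusion, and the labels do not say whether a line is a single clone. Lysates went over GFP-Trap beads, called GFP beads below, or over agarose beads with no binder, called uncoupled beads, which give the background of RNA that sticks to the resin. RUVBL1 cells were untreated, given puromycin at 100 µg/mL for 30 min, given CB-6644, an inhibitor of the RUVBL1/2 ATPase, at 0.5 µM for 16 h, or given both drugs, and RPAP3 cells were untreated or given puromycin in the same way. The 12 groups had 2 libraries each. The comparisons ask which mRNAs came down with each tagged protein, whether puromycin removed them, and whether the ATPase inhibitor changed them.

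Libraries of the RUVBL1 line held 9019665 to 33051512 counts and those of the RPAP3 line 30844089 to 50394245. The 30 mRNAs took 0.348% to 1.97% of the counts in the first line and 0.225% to 0.424% in the second. Of 12 colon epithelial markers, 9 had a median of at least 1 CPM (counts scaled to library size), with CEACAM5, LGALS4 and VIL1 below it, and of 16 markers of blood, stroma and liver 3 did (CD68, ACTA2 and COL1A1). On the first 2 principal components 3 libraries of the RUVBL1 line stood apart, namely GFP replicate 2 of the CB-6644 group, GFP replicate 1 of the group given both drugs and untreated uncoupled replicate 2. The summed level of the 16 markers was 62.9 CPM and 48.6 CPM in the first 2 of these and 26.0 to 40.7 CPM in all other libraries. Most counts of calls and medians that rest on the 3 libraries are given with and without them. Other counts (values above 0, groups without overlap, unadjusted p) and values of single members use all libraries unless stated. Separate cultures behind the replicates are not stated in the labels, and p-values then reflect no more than the variation of these libraries, which may be technical. In such bulk samples fewer cells that express an mRNA and less of it per cell cannot be told apart, and with no unfractionated lysate among the groups used here, neither can the amount of an mRNA in the lysate and the share of it that is bound when 1 kind of bead is compared between treatments.

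In untreated RUVBL1 cells recovery of the 30 mRNAs above the beads could not be settled, since the 2 bead libraries differed widely. Enrichment, the log2 ratio of GFP over uncoupled beads, had a median of -0.11 over the members and -0.04 over all 15976 genes tested, and 13 of 30 values were above 0 against 46% of all genes. No member was called at an adjusted p under 0.05 by edgeR's quasi-likelihood test, where 0.933% of all genes were called, and at an unadjusted p under 0.05 there was 1 member, DNAH1, which was higher on GFP beads as were 6.93% of all genes at that p. DESeq2 also called 0. Both GFP libraries lay above both bead libraries for 2 members, DNAH1 and FASN, against 18.6% of all genes.

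FASN, the fatty acid synthase, stood at 1080.0 and 1074 CPM on GFP beads and at 1052 and 511 CPM on uncoupled beads, an enrichment of 0.46 ± 0.31 (SE, adjusted p = 0.619). Bead replicate 1 lay next to the GFP libraries and bead replicate 2 below them. DNAH1, an axonemal dynein heavy chain known from motile cilia, stood at 20.4 and 18.4 CPM against 7.04 and 1.68 CPM, and its ratio of 2.08 ± 0.72 was the largest of the set in these cells without passing the test (adjusted p = 0.299). The lowest of its libraries held only 17 reads of it. AHNAK2, a giant scaffold protein of the cell cortex, had the lowest ratio, at -0.62 ± 0.91, from 46.9 and 61.8 CPM on GFP beads and 121 and 44.5 CPM on uncoupled beads (adjusted p = 0.86). Its GFP libraries lay between its bead libraries.

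The untreated bead libraries limit these values. Replicate 1 was higher than replicate 2 for 29 of the 30 members, by a median ratio of 2.05 (range 0.504 to 4.20), and DYNC2H1 was the exception. The median enrichment of the members was 0.61 without bead replicate 1 and -0.52 without bead replicate 2, with 0 members called in both cases. Without the 3 libraries that stand apart it was -0.50, and 5 members were then called, 1 higher and 4 lower on GFP beads. For comparison, the mRNA of PRPF8, a large spliceosomal protein assembled with R2TP, was enriched by 6.44 ± 0.45 in the same untreated pull-down, and was chosen for this purpose with its result known.

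**Figure D1:**
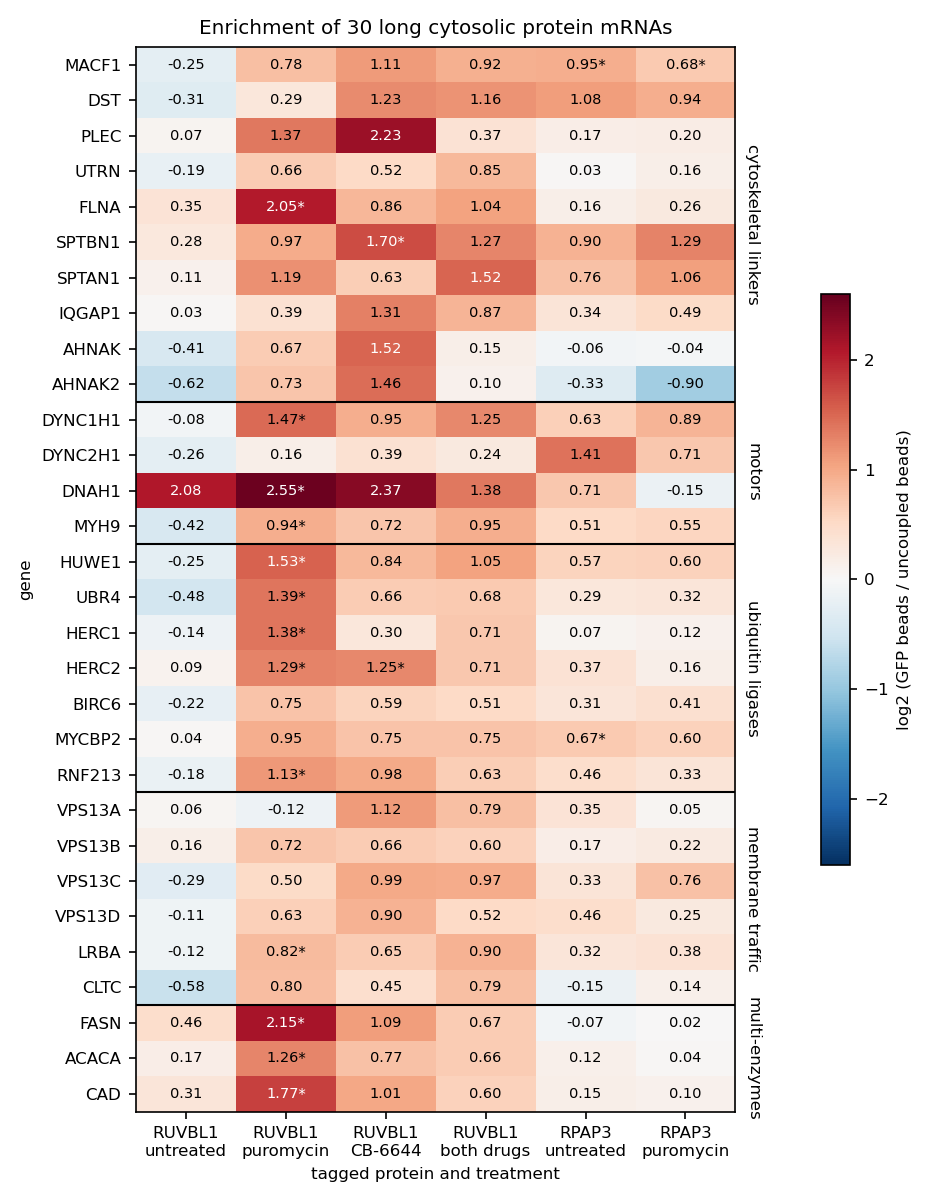
Enrichment of each of the 30 mRNAs (rows, grouped by role) in each tagged line and treatment (columns), as the fitted log2 ratio of GFP over uncoupled beads, 2 libraries against 2, with an asterisk where the adjusted p was under 0.05. The puromycin column of the RUVBL1 line holds 13 asterisks and reaches 2.55, while the untreated column of that line holds none and has a median of -0.11.

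In puromycin-treated RUVBL1 cells 13 of the 30 mRNAs were higher on GFP than on uncoupled beads, 0 were lower and 17 did not pass. This compares beads within the treated cells, and the change with the drug is given further below. Of all genes 13.8% were called in either direction. The median was 0.94 against 0.00 over all genes, and 29 of 30 values were above 0 against 49.4% of all genes. In addition, both GFP libraries lay above both bead libraries for 27 members against 31.8% of all genes. All 3 metabolic multi-enzymes, 3 of 4 motors, 5 of 7 ubiquitin ligases, 1 of 6 traffic proteins and 1 of 10 cytoskeletal linkers were among the 13. PRPF8 stood at 1.65 ± 0.37 in the same pull-down, below its untreated value.

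The metabolic multi-enzymes, each a chain of several catalytic domains, had the smallest adjusted p-values together with FLNA. FASN stood at 1775 and 2597 CPM on GFP beads and at 455 and 531 CPM on uncoupled beads, an enrichment of 2.15 ± 0.32 or 4.43-fold (adjusted p = 0.000226). Both GFP libraries lay far above the untreated GFP libraries at 1080.0 and 1074 CPM as well, while the bead libraries lay within or below the range of their untreated values. CAD, which carries the first steps of pyrimidine synthesis, stood at 311 and 396 CPM against 98.8 and 109 CPM, an enrichment of 1.77 ± 0.29 or 3.41-fold (adjusted p = 0.000507). ACACA, the acetyl-CoA carboxylase that feeds FASN with malonyl-CoA, stood at 216 and 225 CPM against 94.8 and 89.2 CPM, an enrichment of 1.26 ± 0.25 or 2.40-fold (adjusted p = 0.00182). In all 3 the groups were separated by more than the spread within them. FASN lies on chromosome 17 at 82078338 to 82098236, ACACA on chromosome 17 at 37084992 to 37406836 and CAD on chromosome 2 at 27217369 to 27243943 (GRCh38.p14, the assembly of the gene table and the same build as hg38).

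Of the ubiquitin ligases 5 were called higher on GFP beads, and the other 2 had values of the same sign. HUWE1, a HECT ligase with many nuclear and cytosolic substrates, stood at 1103 and 1151 CPM on GFP beads and at 394 and 385 CPM on uncoupled beads, an enrichment of 1.53 ± 0.36 (adjusted p = 0.00734). Its replicates lay close together on both kinds of bead. HERC1, a HECT ligase with RCC1-like domains, stood at 56.7 and 47.8 CPM against 19.8 and 20.3 CPM, an enrichment of 1.38 ± 0.34 (adjusted p = 0.0111). HERC2, a relative of HERC1 with roles in DNA repair, stood at 147 and 152 CPM against 61.0 and 61.5 CPM, an enrichment of 1.29 ± 0.32 (adjusted p = 0.0103). UBR4, a ligase of the N-degron pathway, stood at 448 and 479.8 CPM against 196 and 157 CPM, an enrichment of 1.39 ± 0.41 (adjusted p = 0.0354). RNF213, a RING ligase with AAA+ domains that is linked to moyamoya disease, completed the group. It stood at 172 and 155 CPM against 81.3 and 67.9 CPM, an enrichment of 1.13 ± 0.31 (adjusted p = 0.0207). The GFP libraries of all 7 ligases lay above their bead libraries, including MYCBP2, which acts in axons and stood at 0.95 ± 0.36 (adjusted p = 0.0881), and BIRC6, an inhibitor of apoptosis with ligase activity, at 0.75 ± 0.27 (adjusted p = 0.0717).

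Among the motors DYNC1H1, the heavy chain of cytoplasmic dynein 1, stood at 1136 and 1249.5 CPM on GFP beads and at 446 and 415 CPM on uncoupled beads, an enrichment of 1.47 ± 0.42 (adjusted p = 0.0258). MYH9, the heavy chain of non-muscle myosin IIA, stood at 1052 and 925 CPM against 531 and 501 CPM, an enrichment of 0.94 ± 0.28 (adjusted p = 0.027). Both genes had GFP libraries well clear of the beads. DNAH1 stood at 16.9 and 22.1 CPM against 4.75 and 1.83 CPM, and its 2.55 ± 0.73 was the largest value of the set (adjusted p = 0.0429). Its GFP libraries held 573 and 481 reads and its bead libraries 95 and 32, and its ratio in untreated cells had been of the same order. DYNC2H1, the dynein of intraflagellar transport, did not pass the test, with 3.39 and 1.70 CPM against 2.80 and 1.77 CPM and overlapping groups (0.16 ± 0.55, adjusted p = 0.898).

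Of the cytoskeletal linkers FLNA was called higher on GFP beads and 9 did not pass. FLNA, which crosslinks actin filaments, stood at 1458 and 2059.7 CPM on GFP beads and at 412 and 435 CPM on uncoupled beads, an enrichment of 2.05 ± 0.37 or 4.15-fold (adjusted p = 0.00105). PLEC, the plakin that ties intermediate filaments to other structures, stood at 2042 and 1688 CPM against 745 and 699 CPM without passing (1.37 ± 0.83, adjusted p = 0.328). Its groups did not overlap, and its standard error was the largest but 1 among the members. SPTAN1 and SPTBN1, the alpha and beta chains of non-erythroid spectrin, had 1.19 ± 0.58 and 0.97 ± 0.35, and MACF1, which links actin to microtubules, had 0.78 ± 0.40. UTRN, the homologue of dystrophin, had 0.66 ± 0.32, AHNAK 0.67 ± 0.76, AHNAK2 0.73 ± 0.91 and IQGAP1, a scaffold that binds actin, 0.39 ± 0.47. DST, a plakin related to MACF1, had 451 and 305 CPM against 368 and 251 CPM, so its groups overlapped (0.29 ± 0.37, adjusted p = 0.678).

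Of the traffic proteins only LRBA was called, a BEACH-domain protein that guards CTLA4 from degradation. It stood at 195 and 166 CPM against 107 and 98.0 CPM, an enrichment of 0.82 ± 0.25 (adjusted p = 0.0344). CLTC, the clathrin heavy chain, stood at 701 and 652 CPM against 395 and 379.9 CPM and missed the threshold at 0.80 ± 0.28 (adjusted p = 0.0596). The VPS13 proteins, bridges that move lipids between membranes, lay from -0.12 ± 0.51 for VPS13A to 0.72 ± 0.35 for VPS13B, with VPS13C at 0.50 ± 0.32 and VPS13D at 0.63 ± 0.28. None of the 4 passed, and VPS13A was the only member below 0.

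The count of 13 fell to 4 to 6 when 1 library of the 4 was left out, with 6 without GFP replicate 1 and 4 without each of the others. It was 20 without the 3 libraries that stand apart, none of which belongs to this pair of groups, though they enter the shared estimate of the spread. FASN, CAD, FLNA and ACACA were called in all 11 alternatives.

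**Figure D2:**
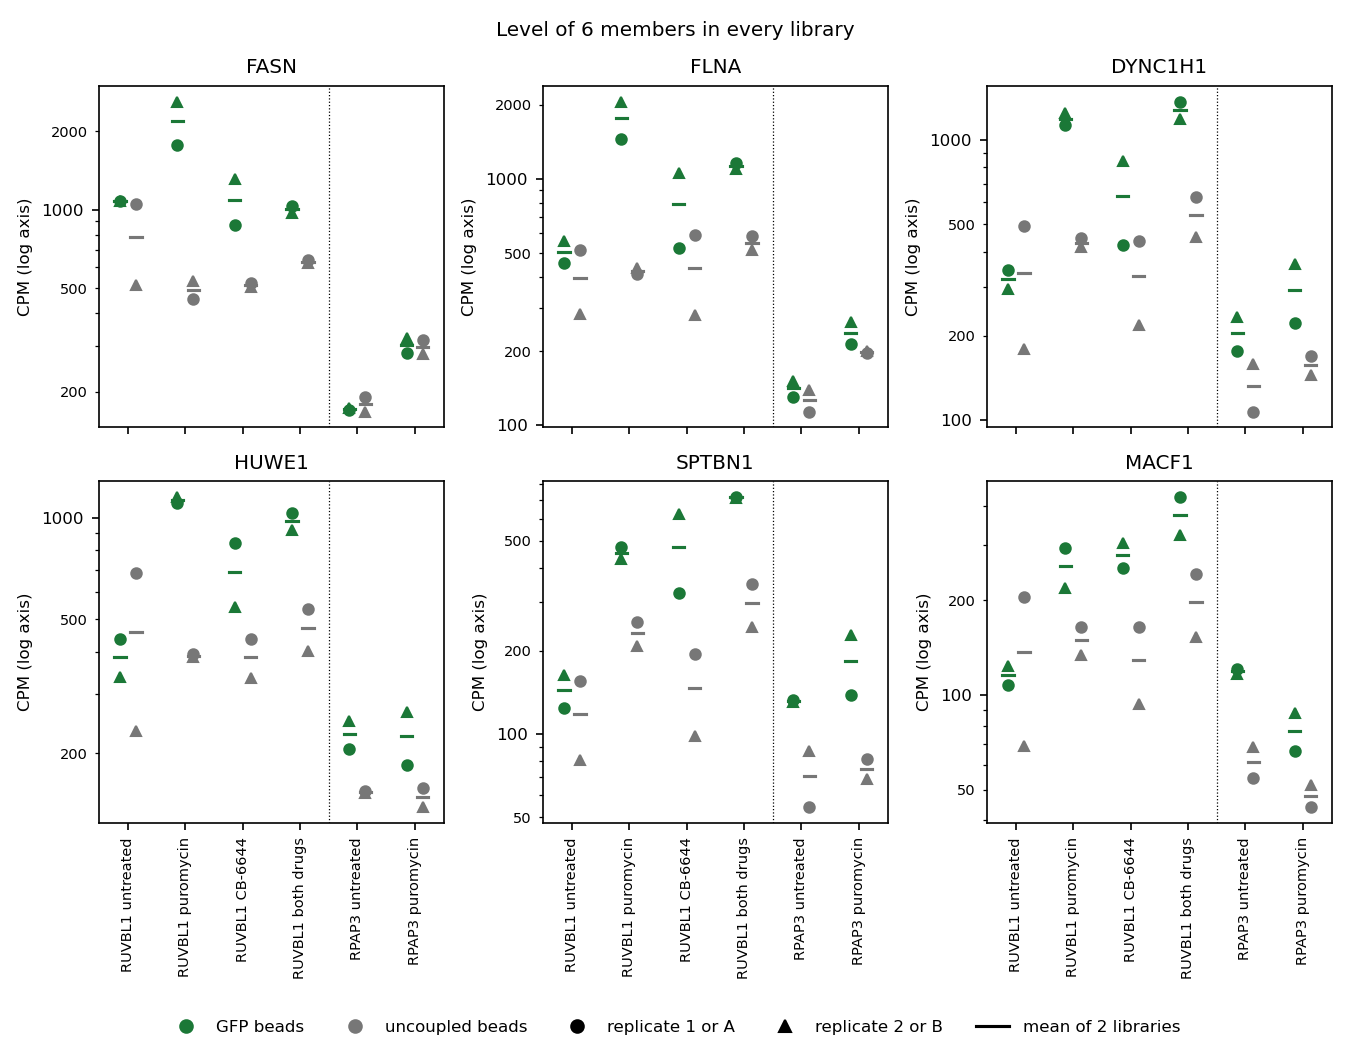
Level in CPM (log axis) of FASN, FLNA, DYNC1H1, HUWE1, SPTBN1 and MACF1 in each of the 24 libraries, with GFP beads in green, uncoupled beads in grey, circles for replicate 1 or A, triangles for replicate 2 or B and a bar at the mean of 2 libraries. The GFP libraries of FASN reach 1775 and 2597 CPM after puromycin in the RUVBL1 line and lie within the range of the beads in untreated RPAP3 cells, whereas those of MACF1 lie above the beads in both RPAP3 treatments.

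Whether puromycin changed the recovery was tested as the difference of the 2 enrichments. No member passed in the RUVBL1 line, where 0.113% of all genes were called, although the median difference was 1.08 against 0.05 over all genes and 29 of 30 values were above 0 against 53.4% of all genes. At an unadjusted p under 0.05 there were 14 members, all higher after puromycin, against 6.59% of all genes in that direction, and DESeq2 called 7. The largest were UBR4 at 1.88 ± 0.58 (adjusted p = 0.27), HUWE1 at 1.78 ± 0.50 (adjusted p = 0.19), FLNA at 1.71 ± 0.51 (adjusted p = 0.214) and FASN at 1.69 ± 0.44 (adjusted p = 0.154). The untreated UBR4 libraries behind the first of these stood at 131 and 128 CPM on GFP beads and at 278 and 83.0 CPM on uncoupled beads. The 4 libraries of HUWE1 there were 437 and 338 CPM on GFP beads and 685 and 232 CPM on uncoupled beads, so in both genes the bead libraries spanned the GFP libraries. The result turned on those beads: without bead replicate 2 of the untreated cells 15 members were called and the median was 1.53, without bead replicate 1 there were 0 and the median was 0.46, and without the 3 libraries that stand apart there were 20 and it was 1.51.

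CB-6644 alone was followed by positive values for all 30 members in the RUVBL1 line, against 51.2% of all genes. The median enrichment was 0.93 against 0.02 over all genes, and both GFP libraries lay above both bead libraries for 21 members against 23.1% of all genes. SPTBN1 and HERC2 were called higher on GFP beads, where 2.42% of all genes were called. At an unadjusted p under 0.05 there were 19 members higher, against 11.9% of all genes. DESeq2 called 13, and the fit with no filter on low counts 15.

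SPTBN1 stood at 325 and 626 CPM on GFP beads and at 194 and 98.2 CPM on uncoupled beads, an enrichment of 1.70 ± 0.36 or 3.25-fold (adjusted p = 0.0186). HERC2 stood at 143 and 173 CPM against 79.2 and 53.6 CPM, an enrichment of 1.25 ± 0.32 or 2.38-fold (adjusted p = 0.0432). Neither gene had overlapping groups, but the GFP libraries of SPTBN1 differed widely between themselves. CAD at 1.01 ± 0.29 and FASN at 1.09 ± 0.31 came next (adjusted p = 0.0611 and 0.062), FASN with 872 and 1311 CPM against 525 and 504 CPM. DNAH1 had the largest value, 2.37 ± 0.74, from 8.20 and 19.7 CPM against 3.20 and 2.14 CPM (adjusted p = 0.108). PLEC came second at 2.23 ± 0.85 from 823 and 5209.8 CPM against 919 and 369 CPM (adjusted p = 0.172), and its lower GFP library lay between its beads.

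AHNAK had the same shape as PLEC, with 305 and 1695 CPM on GFP beads and 456 and 239 CPM on uncoupled beads (1.52 ± 0.78, adjusted p = 0.284). AHNAK2 did too, with 66.4 and 401 CPM against 109 and 60.2 CPM (1.46 ± 0.92, adjusted p = 0.392). In each of these 3 large scaffold genes the high library was GFP replicate 2, which stands apart on the first principal component and has the fewest counts of the series. The members' median in that library, relative to the mean of the line's bead libraries, was 1.08 on the log2 scale, and it was 0.49 in GFP replicate 1. Without GFP replicate 2 no member was called and the median was 0.61, with SPTBN1 at 1.15 ± 0.36 (adjusted p = 0.189) and HERC2 at 1.10 ± 0.38 (adjusted p = 0.271). Without GFP replicate 1 there were 14 calls, without bead replicate 1 there was 1 and without bead replicate 2 there were 0. Without the 3 libraries that stand apart 10 members were called, 1 of the 2 among them, and the median was 0.61 over 26 positive values.

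The change with CB-6644, tested against the untreated enrichment, was above 0 for all 30 members against 52% of all genes, with a median of 1.03 against 0.04. None passed, where 0.188% of all genes were called, and DESeq2 called 1. At an unadjusted p under 0.05 there were 12 members, all higher after the drug, against 6.57% of all genes in that direction. PLEC at 2.16 ± 1.16 and AHNAK2 at 2.08 ± 1.29 were the largest (adjusted p = 0.484 and 0.535), with MYH9 at 1.13 ± 0.39 the first by p (adjusted p = 0.282). MYH9 rested on 765 and 858 CPM on GFP beads against 536 and 453 CPM on uncoupled beads after the drug, and on 427 and 459.9 CPM against 778 and 406 CPM without it. The same untreated libraries serve as reference here and for puromycin, so the changes with the 2 drugs are not independent of each other. Without untreated bead replicates 1 and 2 the median was 0.28 and 1.37, with 0 and 3 members called, and without the 3 libraries that stand apart it was 0.94 with 11 called. Leaving out GFP replicate 1 of the CB-6644 group also gave 3 calls.

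With both drugs the 30 values were again above 0, against 49.9% of all genes. The median was 0.77 against 0.00 over all genes, with 21 members whose libraries did not overlap, against 22.7% of all genes. No member passed, where 0.557% of all genes were called, and DESeq2 called 3. At an unadjusted p under 0.05 there were 17 members, all higher on GFP beads, against 5.97% of all genes in that direction. LRBA came first by p, with 220.4 and 211 CPM on GFP beads and 124 and 107 CPM on uncoupled beads (0.90 ± 0.25, adjusted p = 0.16). MYH9 stood at 1142 and 1227 CPM against 655 and 574 CPM (0.95 ± 0.28, adjusted p = 0.197), and DYNC1H1 at 1373 and 1188 CPM against 625 and 452 CPM (1.25 ± 0.41, adjusted p = 0.341). All 3 had GFP libraries above both bead libraries. SPTAN1 had the largest value, 1.52 ± 0.59 from 427 and 481 CPM against 177 and 139 CPM (adjusted p = 0.51). SPTBN1, its partner in the spectrin tetramer, stood at 720.4 and 716 CPM against 350.0 and 243 CPM (1.27 ± 0.36, adjusted p = 0.169). DNAH1 stood at 26.3 and 8.31 CPM against 7.59 and 5.72 CPM (1.38 ± 0.69, adjusted p = 0.623). Without GFP replicate 1 of this group, which stands apart, the median was 0.52 with 25 positive values and 0 calls, and without all 3 such libraries it was 0.52 with 4 calls.

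FASN stood at 1031 and 973 CPM on GFP beads and at 641 and 621 CPM on uncoupled beads with both drugs, an enrichment of 0.67 ± 0.31 (adjusted p = 0.575). Set against puromycin alone, its enrichment was lower by 1.48 ± 0.44 on the log2 scale with CB-6644 present (adjusted p = 0.235), and that of CAD by 1.17 ± 0.41 (adjusted p = 0.333). These were the only members with an unadjusted p under 0.05 in that comparison, both lower, as were 6.4% of all genes, and the median over the members was -0.21. No member passed, where 0.106% of all genes were called, DESeq2 called 1, and without the 3 libraries that stand apart 6 were called, all lower. Set against CB-6644 alone, adding puromycin gave a median of -0.09 with 0 members called, 0 at an unadjusted p under 0.05 and 0 by DESeq2, where 0.0501% of all genes were called. Without the 3 libraries the median was -0.21 with 0 called, and with 1 library left out it ran from -0.44 to 0.16. PLEC at -1.86 ± 1.16 and AHNAK at -1.37 ± 1.08 were the extremes there (adjusted p = 1 for both), and both had the high CB-6644 library described above as reference.

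**Figure D3:**
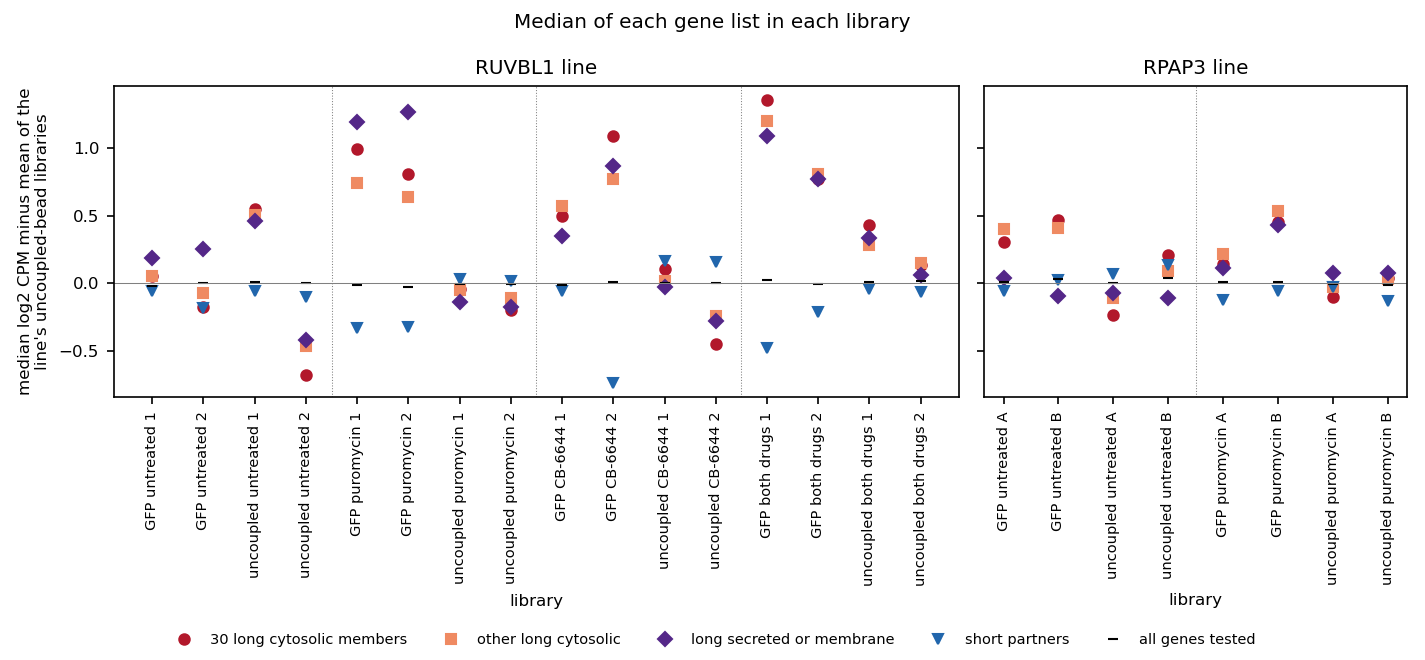
Median, over each list of genes, of the log2 CPM in a library minus the mean log2 CPM of the line's uncoupled-bead libraries, for the 30 members, 36 other long cytosolic proteins, 24 long secreted and membrane proteins, 24 short partner proteins and all genes tested, with RUVBL1 libraries on the left and RPAP3 libraries on the right. The members lie at 0.99 and 0.81 in the GFP libraries after puromycin, and the untreated uncoupled libraries of the same line lie apart from each other at 0.55 and -0.67.

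With RPAP3 the values were smaller, and their sign was the same in most members with and without puromycin. In untreated cells the median enrichment was 0.34 against -0.01 over 15202 genes, and 26 of 30 values were above 0 against 48.9% of all genes. There both GFP libraries lay above both bead libraries for 18 members against 17.4% of all genes. MACF1 and MYCBP2 were called higher on GFP beads, where 1.54% of all genes were called. Of the members 14 had an unadjusted p under 0.05, all higher, against 6.12% of all genes in that direction. After puromycin the median was 0.29, and 27 values were above 0 against 49.9% of all genes. At an unadjusted p under 0.05 there were 12 members higher, against 2.95% of all genes, and 1 lower, AHNAK2. Both GFP libraries lay above the beads for 17 members against 18.5% of all genes, and MACF1 was the only member called, where 0.46% of all genes were. These medians were close to the shift between replicates. Over the members, untreated bead replicates differed by a median of 0.38 (0.18 over all genes), and GFP replicates after puromycin by 0.40 (0.17). Many moved together, with 8 above the line's bead mean in untreated bead replicate A and 23 in B. The signs of the 30 values are therefore not independent. Over the alternatives the median ran from 0.16 to 0.50 without puromycin and from 0.13 to 0.43 with it.

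MACF1 stood at 121 and 117 CPM on GFP beads of untreated RPAP3 cells and at 54.6 and 68.4 CPM on uncoupled beads, an enrichment of 0.95 ± 0.15 or 1.93-fold (adjusted p = 0.000477). After puromycin it stood at 66.4 and 87.8 CPM against 44.1 and 51.9 CPM, an enrichment of 0.68 ± 0.15 or 1.61-fold (adjusted p = 0.0378). The groups did not overlap in either treatment. The level on GFP beads was lower after puromycin, and so was that on the beads, so the change in enrichment was -0.27 ± 0.21 (adjusted p = 1). MYCBP2 stood at 59.6 and 62.7 CPM against 39.8 and 36.8 CPM in untreated cells, an enrichment of 0.67 ± 0.16 or 1.60-fold (adjusted p = 0.0315). After puromycin its libraries were at 36.0 and 56.1 CPM against 31.4 and 29.4 CPM (0.60 ± 0.16, adjusted p = 0.199). MACF1 lies on chromosome 1 at 39084167 to 39487138 and MYCBP2 on chromosome 13 at 77044657 to 77327094 (GRCh38.p14).

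Some other linkers and motors had RPAP3 values near or above those of MACF1 and MYCBP2, with wider errors. DYNC2H1 had the largest untreated value, 1.41 ± 0.41, from 3.63 and 2.62 CPM on GFP beads and 1.41 and 0.962 CPM on uncoupled beads (adjusted p = 0.11). Its libraries held 155, 98, 52 and 51 reads. DST stood at 406 and 421 CPM against 152 and 239 CPM in untreated cells (1.08 ± 0.31, adjusted p = 0.302) and at 267 and 443 CPM against 152 and 217 CPM after puromycin (0.94 ± 0.31, adjusted p = 0.908). SPTBN1 stood at 133 and 131 CPM against 54.5 and 86.6 CPM in untreated cells (0.90 ± 0.28, adjusted p = 0.331), and at 138 and 229 CPM against 81.2 and 68.8 CPM after puromycin (1.29 ± 0.28, adjusted p = 0.233). SPTAN1 stood at 97.2 and 142 CPM against 55.2 and 59.4 CPM after puromycin (1.06 ± 0.21, adjusted p = 0.06). The GFP libraries of DST and of both spectrin chains lay above the beads in both treatments. DYNC1H1 did as well, at 177 and 234 CPM against 107 and 159 CPM without the drug (0.63 ± 0.27, adjusted p = 0.601) and at 223 and 363 CPM against 170.3 and 145 CPM with it (0.89 ± 0.27, adjusted p = 0.652).

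The metabolic multi-enzymes, first in the RUVBL1 pull-down after puromycin, were near 0 with RPAP3. FASN stood at 169.5 and 173 CPM on GFP beads and at 191 and 168 CPM on uncoupled beads in untreated cells (-0.07 ± 0.14), and at 282 and 322 CPM against 317 and 279.7 CPM after puromycin (0.02 ± 0.14). Its groups overlapped in both treatments. ACACA had 0.12 ± 0.12 and 0.04 ± 0.12, and CAD 0.15 ± 0.12 and 0.10 ± 0.12. AHNAK2 was the lowest member after puromycin, at -0.90 ± 0.31 from 13.2 and 14.7 CPM against 18.5 and 33.5 CPM (adjusted p = 0.895), and the only one with both GFP libraries below both bead libraries there. In untreated cells AHNAK2 was again lowest, at -0.33 ± 0.30, and the only member with both GFP libraries below both bead libraries was CLTC at -0.15 ± 0.13, from 139.8 and 147 CPM against 154 and 164 CPM (adjusted p = 0.904).

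No change of enrichment with puromycin passed the test for RPAP3. The median difference was 0.03 against 0.00 over all genes, 18 of 30 values were above 0 against 49.9% of all genes, and 0 members were called, where 0.25% of all genes were. No member reached an unadjusted p under 0.05, and DESeq2 called 0. The range ran from -0.86 ± 0.62 for DNAH1 and -0.70 ± 0.57 for DYNC2H1 to 0.43 ± 0.25 for VPS13C. The DNAH1 libraries behind the lowest value were 7.01 and 8.61 CPM on GFP beads against 3.04 and 6.42 CPM on uncoupled beads without the drug, and 3.71 and 4.38 CPM against 2.56 and 6.54 CPM with it.

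The counts for RPAP3 moved with single libraries. MACF1 was called in untreated cells with each of the 4 libraries left out, MYCBP2 in 0 of these 4 fits (adjusted p = 0.0957 to 0.387), and MACF1 after puromycin in 1 of 4 such fits. In untreated cells 1 member was called without GFP replicate B and 1 without bead replicate A, and 3 without bead replicate B. After puromycin 8 were called without GFP replicate A and 0 without GFP replicate B or bead replicate B. DESeq2 called 4 members in untreated cells and 6 after puromycin.

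RUVBL1 and RPAP3 were compared directly as the difference of their enrichments in 1 fit of all 24 libraries. After puromycin 4 members were more enriched with RUVBL1 and 0 with RPAP3, where 4.45% of 16695 genes were called in either direction. They were FASN by 2.16 ± 0.37 (adjusted p = 0.00119), CAD by 1.70 ± 0.35 (adjusted p = 0.00491), ACACA by 1.26 ± 0.30 (adjusted p = 0.0133) and FLNA by 1.83 ± 0.45 (adjusted p = 0.0179). All 3 multi-enzymes are thus in this group with 1 linker. FLNA stood at 213 and 262 CPM on GFP beads and 196 and 201 CPM on uncoupled beads in RPAP3 cells after puromycin, groups that did not overlap but differed by 0.26 ± 0.14. DNAH1 had the largest difference, 2.76 ± 1.00, without passing (adjusted p = 0.143). The median over the members was 0.58 against 0.03 over all genes, and 24 of 30 were above 0 against 51.7% of all genes. FASN was called in all 8 fits with 1 library left out, CAD in 6, ACACA in 1 and FLNA in 1. The count was 1 to 4 when 1 library was left out, with 1 without RUVBL1 GFP replicate 2 and 1 without RUVBL1 bead replicate 1, 2 without each of 5 other libraries, and 11 without the 3 libraries that stand apart.

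In untreated cells no difference between the lines passed. The median was -0.38 against 0.00 over all genes, 6 of 30 values were above 0 against 49.8% of all genes, with 0 members called where 0.407% of all genes were called. The sign of the median turned with a single library, to 0.25 with 23 values above 0 without untreated RUVBL1 bead replicate 1, and it was -0.82 without bead replicate 2. At an unadjusted p under 0.05 there were 4 members, all higher with RPAP3, against 3.31% of all genes in that direction, and DESeq2 called 0. DYNC2H1 at -1.60 ± 0.74 (adjusted p = 0.51) and DNAH1 at 1.41 ± 0.97 (adjusted p = 0.749) were the extremes. DYNC2H1 rested on 2.69 and 1.55 CPM on GFP beads and 1.74 and 3.45 CPM on uncoupled beads in the RUVBL1 line. Without untreated RUVBL1 bead replicate 2 there was 1 call, and without the 3 libraries that stand apart there were 9, all higher with RPAP3.

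The background on the uncoupled beads also moved. In the RPAP3 line 8 of the 30 differed on uncoupled beads between puromycin-treated and untreated cells. After the drug 5 were higher and 3 lower, where 43% of all genes were called. Of the colon epithelial markers 8 of 10 tested rose in the same comparison, with a median of 1.03, and the summed share of all 12 was 0.167% to 0.201% of the counts without the drug and 0.447% to 0.481% with it. On GFP beads of this line the share was 0.153% to 0.187% without the drug and 0.419% to 0.522% with it. Neither this shift nor a difference in preparation was tested as a source of the change in the members. IQGAP1 rose from 61.9 and 86.3 CPM to 184 and 161 CPM, by 1.22 ± 0.16 or 2.33-fold (adjusted p = 4.73e-06). CLTC rose from 154 and 164 CPM to 338 and 309.8 CPM, by 1.02 ± 0.14 or 2.03-fold (adjusted p = 2.98e-06). Both genes had GFP libraries that moved in step with the beads, IQGAP1 from 97.7 and 90.7 CPM to 209 and 276 CPM and CLTC from 139.8 and 147 CPM to 326 and 388 CPM. FASN rose by 0.73 ± 0.14 (adjusted p = 0.000164), FLNA by 0.65 ± 0.14 (adjusted p = 0.000811) and CAD by 0.34 ± 0.12 (adjusted p = 0.0292). The 3 that fell were HERC2 by 0.52 ± 0.14 from 36.2 and 42.9 CPM to 27.1 and 28.3 CPM (adjusted p = 0.00495), VPS13D by 0.47 ± 0.13 from 38.5 and 45.9 CPM to 30.2 and 30.7 CPM (adjusted p = 0.00689) and RNF213 by 0.43 ± 0.14 from 41.3 and 44.8 CPM to 27.5 and 36.5 CPM (adjusted p = 0.0202). The share of the members called was below that of all genes. The count was 4 without puromycin bead replicate A and 5 without untreated bead replicate B.

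In the RUVBL1 line no member and no other gene passed on the uncoupled beads, after puromycin or after CB-6644 (0% of genes each). The members' median was -0.22 after puromycin, with 3 members at an unadjusted p under 0.05 (2 higher, 1 lower), and -0.16 after CB-6644, with 0. DESeq2 called 0 in both. These medians turned with the untreated bead libraries, to 0.47 and 0.50 without replicate 1 and to -0.64 and -0.64 without replicate 2. IQGAP1 was the largest after puromycin, from 86.6 and 73.8 CPM to 209 and 202 CPM (1.36 ± 0.48, adjusted p = 0.496), followed by SPTBN1, from 156 and 80.9 CPM to 254 and 209 CPM (0.96 ± 0.35, adjusted p = 0.496). Those were the 2 members with both puromycin libraries above both untreated ones. After CB-6644 the extremes were DNAH1 at -0.78 ± 0.74 and SPTAN1 at 0.73 ± 0.58, the latter from 132 and 58.5 CPM to 249.7 and 68.0 CPM. Without the 3 libraries that stand apart 7 members were lower after each drug.

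Beside the members 3 further lists were measured, with no test of one list against another. The 36 other long cytosolic proteins, among them talins and further myosins, had medians of -0.04, 0.82, 0.80 and 0.80 in the RUVBL1 line (untreated, puromycin, CB-6644, both drugs) and of 0.41 and 0.33 in the RPAP3 line (untreated, puromycin). The members' medians in the same order were -0.11, 0.94, 0.93, 0.77, 0.34 and 0.29. The RUVBL1 medians without the 3 libraries that stand apart were -0.44, 0.81, 0.72 and 0.57 for these 36 and -0.50, 0.93, 0.61 and 0.52 for the members. Of the 36, 13 were higher on GFP beads with RUVBL1 after puromycin (23 without the 3 libraries). They were led by GCN1, the ribosome-bound activator of GCN2, at 2.53 ± 0.31 (adjusted p = 6.43e-05). TLN1, which couples integrins to actin, followed at 1.71 ± 0.29 (adjusted p = 0.000595). In untreated RPAP3 cells 9 of the 36 were higher on GFP beads.

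Long secreted and membrane proteins, which are made at the endoplasmic reticulum, had medians of 0.07, 1.42, 0.87 and 0.76 in the RUVBL1 line and of 0.08 and 0.19 in the RPAP3 line. The first 4 were -0.16, 1.41, 0.50 and 0.46 without the 3 libraries. Of 24 tested, 16 were higher on GFP beads with RUVBL1 after puromycin (21 without the 3 libraries). Among them were NOTCH3 at 1.94 ± 0.30 (adjusted p = 0.000322) and NOTCH2 at 1.72 ± 0.28 (adjusted p = 0.000467). With RPAP3 0 passed in either treatment. The 24 short partners of the members, such as dynein and myosin light chains, clathrin light chains, calmodulins and actins, had medians of 0.00, -0.30, -0.42 and -0.26 with RUVBL1 and of -0.02 and 0.01 with RPAP3. Those with RUVBL1 were 0.06, -0.31, -0.15 and -0.15 without the 3 libraries. After puromycin 1 short partner, DYNC2I2, was higher on GFP beads with RUVBL1, by 0.81 ± 0.25 (adjusted p = 0.0334). There 2 were lower, DYNLT3 by 1.12 ± 0.24 (adjusted p = 0.00319) and DYNLT1 by 0.73 ± 0.24 (adjusted p = 0.0444). Without the 3 libraries 10 were lower. The dynein heavy chain DYNC1H1 and the light chains DYNLT3 and DYNLT1 thus stood on opposite sides of the beads in the same 4 libraries. DYNC2I2 stood on the side of DYNC1H1, and the other dynein subunits of this list did not pass. Protein and transcript lengths were not used here, so the lists stand for length only by their names.

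**Figure D4:**
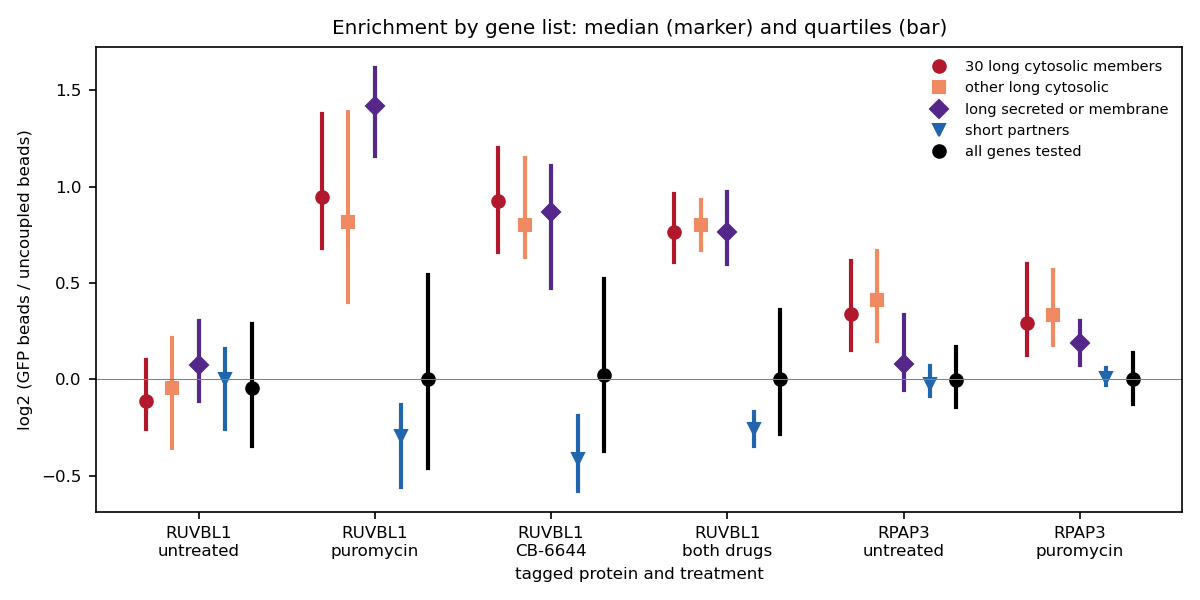
Median (marker) and quartiles (bar) of the fitted log2 ratio of GFP over uncoupled beads over each list of genes, by tagged protein and treatment. After puromycin in the RUVBL1 line the 3 lists of long proteins have medians of 0.94, 0.82 and 1.42 and the short partners -0.30, while in untreated RPAP3 cells the 2 cytosolic lists (0.34 and 0.41) lie above the secreted and membrane list (0.08).

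With drugs in the RUVBL1 line nearly all members shared a sign, with 29, 30 and 30 of 30 values above 0 (puromycin, CB-6644, both drugs). Of all genes 49.4%, 51.2% and 49.9% were above 0. The sign was not particular to the members: 34, 36 and 36 of the 36 other long cytosolic proteins were above 0. Of the 24 long secreted and membrane proteins 22 were above 0 each time. GFP libraries lay above the beads for 27, 21 and 21 members, for 27, 31 and 31 of the 36, and for 21, 18 and 18 of the 24. These counts use all libraries, and fewer members were above 0 for CB-6644 and both drugs without libraries that stand apart, as given above. In this line too members moved together between replicates, with 27 above the line's bead mean in untreated bead replicate 1 and 1 in replicate 2. The signs of their values are therefore not independent. The members differed in overlap between libraries and in calls. Both GFP libraries lay above both bead libraries in all 3 drug-treated RUVBL1 pairs for 15 members, where 8.78% of all genes did, in 2 pairs for 10, in 1 for 4 and in none for DYNC2H1. With the libraries that stand apart left out, the GFP groups of CB-6644 and of both drugs kept 1 library each. The rule is then easier to meet, and 14 members and 12.4% of all genes met it. Both RPAP3 pairs were above for 15 members, where 5.45% of all genes were. Both conditions were met by 8 members, namely MACF1, SPTBN1, HUWE1, BIRC6, MYCBP2, VPS13C, LRBA and CAD. By the test 16 of the 30 were called in at least 1 enrichment, against 17.6% of the 14748 genes tested in every fit. In at least 1 of the 16 comparisons 19 were called, against 52.3% of those genes, and 11 in none. The 11 were AHNAK, AHNAK2, PLEC, DST, UTRN, SPTAN1, DYNC2H1, BIRC6, VPS13A, VPS13B and VPS13C. Of these, BIRC6 ran from 57.1 to 149.8 CPM over the RUVBL1 libraries and from 47.4 to 77.5 CPM over the RPAP3 libraries, VPS13A from 30.5 to 133 and from 29.7 to 63.4 CPM, VPS13B from 20.6 to 86.8 and from 21.8 to 34.5 CPM, and VPS13C from 21.4 to 80.6 and from 16.6 to 39.2 CPM. UTRN stood at 8.57 to 34.0 CPM in RUVBL1 cells and at 83.0 to 111 CPM in RPAP3 cells, ranges that did not overlap, with each line scaled on its own.

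The order of the 30 members by enrichment was similar between the RPAP3 treatments (Spearman correlation 0.74 across the 30 genes, which are not independent replicates). By the same coefficient it was unlike between puromycin and CB-6644 in the RUVBL1 line (0.06) and between puromycin in the RUVBL1 line and untreated RPAP3 cells (-0.13). With both drugs the order in the RUVBL1 line had a Spearman correlation of 0.51 with untreated RPAP3 cells and of 0.52 with RPAP3 cells after puromycin. None of these pairs of comparisons shares a library. The 4 coefficients that involve the RUVBL1 line were, in the same order, 0.27, -0.13, 0.35 and 0.60 without the 3 libraries that stand apart. Member pairs were also ranked by Pearson's r over all 24 libraries, with each library centred on the members' median. FASN and CAD came first, with r at 0.97 over the 16 RUVBL1 libraries and 0.96 over the 8 RPAP3 libraries, followed by AHNAK and AHNAK2 (0.88 and 0.87). DST and CAD (-0.90 and -0.72) and HERC2 and IQGAP1 (-0.85 and -0.94) came last, and within a single line the order of pairs differed from this. Over the 13 RUVBL1 libraries that do not stand apart the 4 pairs had 0.96, 0.85, -0.91 and -0.85. These coefficients describe libraries that share a line, a kind of bead and a depth.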

How the data were processed

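RNA was sequenced from 24 pull-down libraries, 12 groups of 2, and groups were taken from the labels. The values are raw counts of reads per gene, whole numbers in 1 table that the authors deposited. featureCounts 2.0.3 and TopHat2 2.1.1 with build hg38 are named in the submitters' processing notes, beside bcl2fastq 2.20.0.422 and FastQC 0.11.9. Strand setting, handling of reads with several placements and annotation release are not given in the sources used here. Overlapping or near-identical genes could therefore share or lose reads, and PCR copies were not separated by molecular identifiers.

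After filterByExpr and TMM scaling, edgeR 4.0.16 (R 4.3.3) fitted the counts with robust dispersions and its quasi-likelihood test, adjusted by Benjamini-Hochberg over all genes tested and calls at an adjusted p under 0.05. The fits held 16 RUVBL1 libraries (15976 genes), 8 RPAP3 libraries (15202 genes) or all 24 (16695 genes, for differences between the lines), and all 30 members were tested in each. Standard errors were derived from the F statistic, so they pool the spread of all libraries of a fit and moderate it across genes. Changes in enrichment were interaction terms. CPM values are counts scaled by depth and TMM factor, whereas summed markers and shares of the counts were scaled by depth alone. Replicate libraries correlated at 0.932 to 0.984 (log2 CPM across genes). They differed by more than counting noise, at 13.1 to 94.4 for chi-square over its degrees of freedom, so none were merged. In 7 of the 12 pairs the members' median absolute log2 difference was above that of all genes.

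The members, the other lists and the roles were chosen with earlier results of these data known. Values in every library are given for members called in at least 1 comparison and for the 2 members with the largest absolute value in each comparison, and up to 4 called genes of another list may be named. Positions come from the NCBI gene table for GRCh38.p14, in which all 30 members were found. Alternatives were DESeq2 1.42.0, other scalings, no filter, a replicate block, a fit of all 24 libraries and leaving out libraries.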

Additional observations from a re-analysis of the deposited data

Results flagged for a closer look

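The enrichment after puromycin differed between the lines in 4 of the 30 members by the test of the difference itself (edgeR's quasi-likelihood test, all 24 libraries), where 4.45% of all genes did. It was higher with RUVBL1 than with RPAP3 by 2.16 ± 0.37 on the log2 scale for FASN, by 1.70 ± 0.35 for CAD, by 1.26 ± 0.30 for ACACA and by 1.83 ± 0.45 for FLNA. With 1 library left out the call held in 8 of 8 fits for FASN, 6 for CAD, 1 for ACACA and 1 for FLNA, and over all 14 alternatives in 14, 12, 7 and 6. In untreated cells the same differences were 0.58 ± 0.37, 0.21 ± 0.35, 0.10 ± 0.30 and 0.24 ± 0.44, and none of them passed. On the uncoupled beads of the RPAP3 line FASN, FLNA and CAD were higher after puromycin, as given above. Their part in the difference between the lines was not tested.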

How the results depend on the processing

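The 16 counts of members called were recomputed under each alternative. DESeq2 called 13 members for CB-6644 with RUVBL1, 3 for both drugs, 4 and 6 for RPAP3 without and with puromycin, 7 for the puromycin change and 1 each for the CB-6644 changes without and with puromycin. The fit of all 24 libraries gave, for the same first 4 enrichments, 8, 1, 0 and 0, with 3 for the puromycin change and 1 for the uncoupled beads of the RPAP3 line. With no filter on low counts the 4 were 15, 8, 8 and 9, the puromycin and CB-6644 changes 9 and 6, and the uncoupled beads of the RUVBL1 line after puromycin and the untreated difference between lines 1 each. Total-count scaling gave 7 for CB-6644 and 1 and 0 for RPAP3 without and with puromycin, and upper-quartile scaling 0 for the last. Without the 3 libraries that stand apart, chosen after seeing the data, the counts were 5, 20, 10 and 4 for the RUVBL1 enrichments (untreated, puromycin, CB-6644, both drugs), 20 and 11 for the puromycin and CB-6644 changes, 6 for the CB-6644 change under puromycin, 7 and 7 for the uncoupled beads, and 9 and 11 for the differences between lines without and with puromycin.

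With 1 library left out the counts ran from 4 to 6 for puromycin with RUVBL1, 0 to 14 for CB-6644, 1 to 3 and 0 to 8 for RPAP3 without and with puromycin, 0 to 15 for the puromycin change, 0 to 3 for the CB-6644 change, 4 to 9 for the uncoupled beads of the RPAP3 line, 0 to 1 for the untreated difference between lines and 1 to 4 for that after puromycin. The groups share replicate numbers. Over all genes same-numbered libraries did not deviate together (correlations of -0.41 to 0.27 in the RUVBL1 line and -0.12 to 0.16 in the RPAP3 line, 4 of 28 and 2 of 6 over 0.1), so the numbers were not taken to pair them. The members' own library medians did follow the numbers in most groups. In every RPAP3 group replicate B lay above A, for example at 0.45 and 0.14 on GFP beads after puromycin. In the RUVBL1 line replicate 1 lay above 2 except on GFP beads after CB-6644. A pairing of the members was not tested beyond the replicate block. With the replicate block the count was 7 for CB-6644, 5 and 7 for RPAP3 without and with puromycin and 17 for puromycin with RUVBL1, and no other count moved by over 1.5 times. For the 30 calls of single members 235 of 331 values stayed past the threshold, 96 no longer passed it and 0 changed sign. Depth limits DYNC2H1 and DNAH1, with 31 to 155 and 17 to 573 reads per library.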
